A study of Mus musculus with 24 samples.

Results

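The genes described here encode the extracellular matrix and the proteases that cut it, as measured by RNA-seq of mouse C127 mammary adenocarcinoma cells. They were taken from a list of 40 symbols covering collagens, laminin chains, adhesive glycoproteins, lysyl oxidases, matrix proteases and protease inhibitors. All 40 symbols were found in the 6 deposited tables, and the 31 whose normalised count averaged 10 or more over the 24 libraries were kept, out of 12394 genes that met the same rule. A normalised count is a read count divided by the library's size factor, computed over all 24 libraries.

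All cells lacked their own glucocorticoid receptor (GRKO) and carried a GFP-tagged mouse receptor in its place, either wild type (GFP-mGRwt) or a form named tetra (GFP-mGRtetra), whose changes the labels do not spell out. In each line, 4 groups of 3 libraries were made: vehicle, 100 nM corticosterone, 100 µM TCA, and TCA with corticosterone. TCA is given only by that abbreviation, in a study of bile acids and the glucocorticoid receptor. Treatments lasted 2 h, after 24 h in charcoal-stripped serum, and corticosterone is the main natural ligand of the receptor in mice. Each receptor form was studied in its own cell line, so receptor form and cell line cannot be told apart. The labels do not say that replicates came from separate cultures, so the p-values measure only the spread between these libraries, and with bulk RNA fewer cells of a kind and less RNA per cell cannot be told apart. No batch, culture day or harvest day is named in the labels, so a treatment cannot be told apart from such differences between groups.

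The extracellular matrix is the secreted scaffold around cells. Fibrillar collagens give it tensile strength after lysyl oxidases cross-link them, type IV collagen and laminins build the sheet-like basement membrane under epithelia, and glycoproteins such as fibronectin and the thrombospondins link the scaffold to cell surface receptors. Metalloproteinases, ADAMTS proteases and the plasminogen activators remodel it, and TIMP proteins hold the metalloproteinases in check. Glucocorticoids are known to lower the RNA of several matrix and plasminogen activator genes in other cells.

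Levels of the matrix genes spanned a wide range. Per kilobase of exon, the scale on which genes can be compared, Sparc, a collagen-binding matricellular protein, stood highest in the wild-type line with vehicle at 12857 normalised counts per kilobase, followed by Thbs1 (thrombospondin 1) at 11408, the type I collagen gene Col1a2 at 8826 and Fn1 (fibronectin) at 6015. The order changed between groups. In the tetra line with vehicle it ran Sparc (12499.9), Col1a2 (10974), Fn1 (5024) and Timp2 (4435 normalised counts per kilobase). In the wild-type line with TCA, Col1a2 stood above Sparc, at 10910.3 against 7106 normalised counts per kilobase. At the other end of the kept genes, by the mean over all 24 libraries, were Timp3 at 4.91 and Loxl2 at 5.05 normalised counts per kilobase.

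The chains of type I collagen were far apart, although the usual protein is built from both. Over all libraries Col1a1 averaged 26.4 normalised counts per kilobase against 10289 for Col1a2, and the ratio of Col1a2 to Col1a1 counts lay between 240.4 and 576 over the 24 libraries. Of the laminin chains, Lamc1 (941), Lamb3 (433), Lama5 (300.5) and Lamb1 (279 normalised counts per kilobase) were present. Lama3, the alpha chain with which Lamb3 is known to assemble, had a mean normalised count of 0.562.

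The 9 listed genes under the filter were Bgn, Mmp2, Tgfbi, Lama3, Tnc, Adamts5, Lama4, Mmp3 and Dcn. Bgn (biglycan) lay just outside the threshold with a mean normalised count of 9.89, Mmp2 (gelatinase A) stood at 4.73, and the lowest kept gene, Timp3, stood at 22.9. Lama4, Mmp3 and Dcn had 0 reads in every library, where 3 reads correspond to a normalised count of 2.47 to 3.53. Among the matrix metalloproteinases listed, Mmp14, a membrane-anchored collagenase, was therefore the one gene kept.

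**Figure D1:**
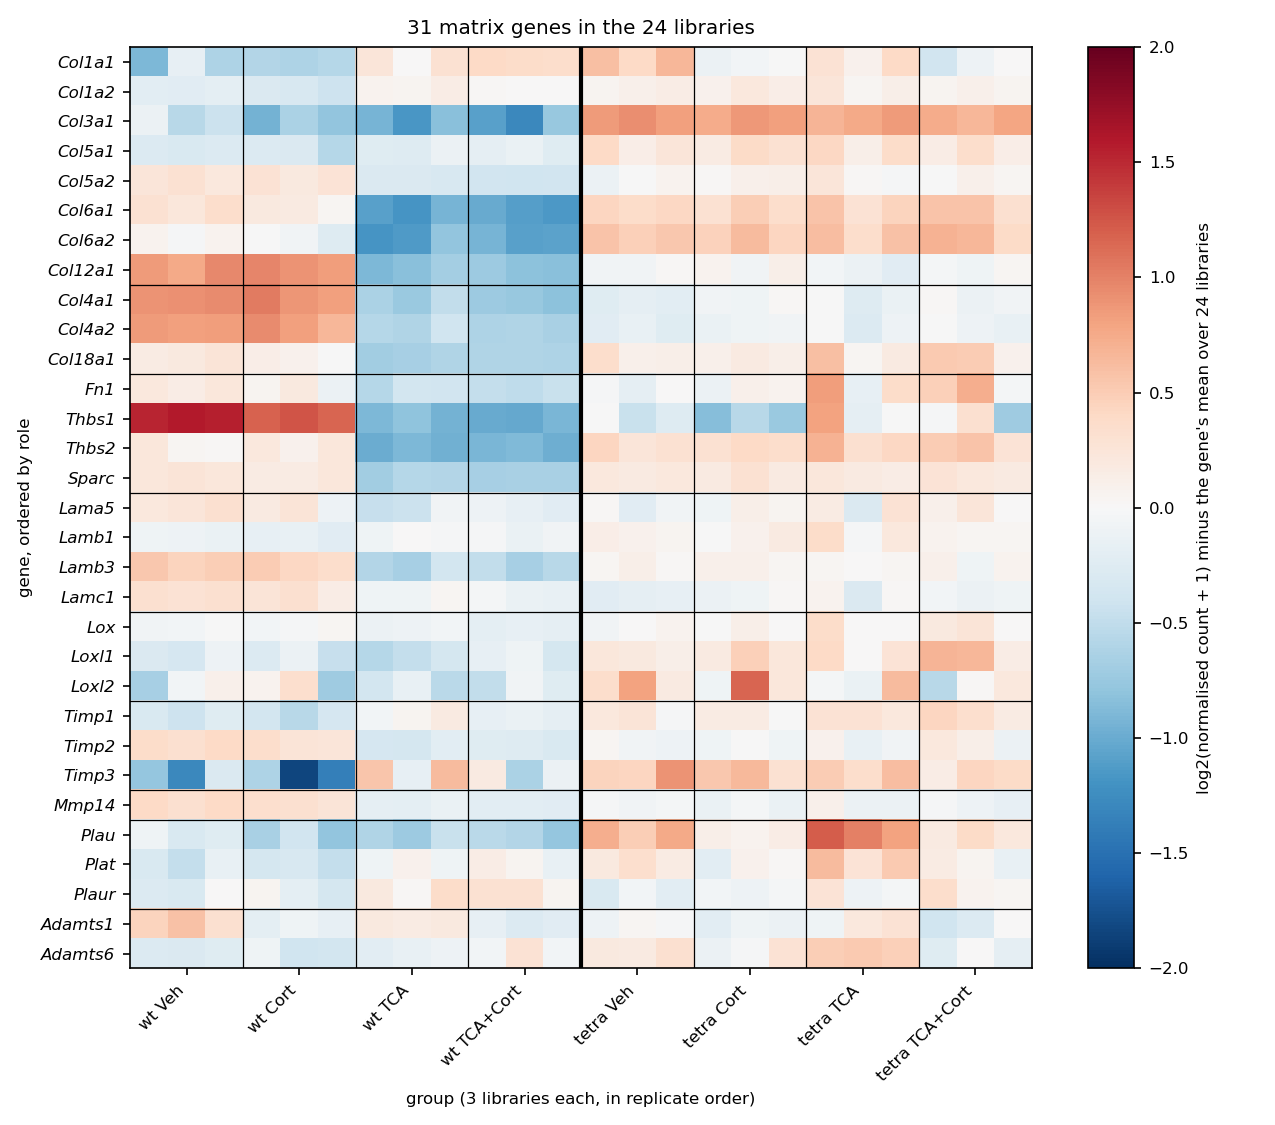
Heat map of the 31 matrix genes (rows, ordered by role) in the 24 libraries (columns, 3 per group; the thick line separates the wild-type receptor line from the tetra line). Colour gives log2(normalised count + 1) minus the gene's mean over all libraries; most type IV and VI collagen, thrombospondin, Fn1 and Sparc rows turn blue in the 6 wild-type libraries with TCA.

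The libraries held 22.02 to 30.6 M exon reads, of which the listed matrix genes took 0.765% to 1.47%. The receptor gene Nr3c1 had mean normalised counts of 5528 in the wild-type line and 5451 in the tetra line with vehicle. Since the introduced receptor is itself mouse, that level is no check of the knockout. Corticosterone raised the receptor targets Per1 and Tsc22d3 6.78-fold and 2.99-fold in the wild-type line, and 5.33-fold and 3.37-fold in the tetra line. The epithelial markers Epcam and Cdh1 were at or near 0 (mean normalised counts 0 and 0.123), 1 of 12 epithelial markers reached a mean of 10 (Krt14), and 12 of 14 mesenchymal markers did, led by Vim.

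TCA alone was compared with vehicle in the wild-type line, without added hormone. Of the 31 matrix genes, 20 fell and 5 rose at a Benjamini-Hochberg adjusted p below 0.05 (limma on the deposited variance-stabilised values, n = 3 libraries a group, p adjusted over all genes tested). Across all 12725 genes tested, 28.6% fell and 28.8% rose, against 64.5% and 16.1% of the matrix genes. The matrix genes were chosen with earlier results of these data known, so these shares are a description. The median change of the matrix genes was -0.34 on the stabilised log2 scale, against 0.00 for all genes tested. That scale compresses changes of low counts, so folds are given as ratios of mean normalised counts.

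Thbs1 (chr2:118111876-118127133, plus strand, mm10), an adhesive glycoprotein that activates latent TGF-beta, changed most. Its normalised counts were 64925, 68176 and 66115 with vehicle and 12110.2, 12867 and 11699 with TCA. Every TCA library lay far below every vehicle library, a 5.43-fold fall (log2 -2.42 ± 0.05 SE, limma adjusted p = 9.08e-13). Thbs2, its relative, fell 2.07-fold from 728 ± 59.3 to 351 ± 12.5 (SD, n = 3; limma adjusted p = 9.85e-08). Fn1, the main cell-adhesive glycoprotein, fell 1.55-fold from 50390.5 ± 1392 to 32424 ± 2587 (SD, n = 3; limma adjusted p = 1.53e-06). Sparc counts were 33538, 34279 and 33585 with vehicle and 17666, 19253 and 19126 with TCA, a 1.81-fold fall with no overlap (limma adjusted p = 9.74e-09). All 4 kept adhesive and matricellular genes were thus lower with TCA.

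The chains of basement membrane collagen fell together. Col4a1 (chr8:11198423-11312826, minus strand) had counts of 37584, 38197 and 38737 with vehicle and 13048, 11997 and 14399 with TCA, a 2.90-fold fall (log2 -1.52 ± 0.06 SE, limma adjusted p = 1.87e-10). Col4a2 (chr8:11312805-11449287, plus strand), which encodes the partner chain, had 21799.6, 21302 and 21504 and then 8173, 7933 and 9200.2, a 2.55-fold fall (log2 -1.33 ± 0.05 SE, limma adjusted p = 2.47e-10). The annotated 5′ ends of these genes, which are read away from each other, overlap, and without a stated strand setting reads in the overlap cannot be told apart. The ratio of Col4a1 to Col4a2 counts stayed between 1.48 and 1.86 over the 24 libraries, while Col4a1 itself spanned 3.62-fold. Col18a1, which gives rise to endostatin, fell 1.81-fold from 6647 ± 243 to 3675 ± 125 (SD, n = 3; limma adjusted p = 4.47e-09).

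Of the 8 fibrillar and associated collagen genes, 5 fell and 2 rose. Col6a1 and Col6a2, the chains of beaded-filament type VI collagen, fell 2.56-fold and 2.09-fold. Col6a1 counts were 11256, 10703 and 11617 with vehicle and 4297, 4019 and 4788 with TCA (limma adjusted p = 4.66e-10). Col6a2 counts were 4129, 3859 and 4126 and 1736, 1794 and 2256 (limma adjusted p = 6.82e-08). In both genes the groups were well apart. Col12a1, which encodes a fibril-associated collagen, fell 3.17-fold from 345 ± 23.8 to 109 ± 8.73 (SD, n = 3; limma adjusted p = 2.29e-08), Col3a1 fell 1.54-fold and Col5a2 1.46-fold. Both type I chains rose: Col1a2 from 45610.4 ± 382 to 56384 ± 2148 (SD, n = 3), 1.24-fold (limma adjusted p = 0.000276), and the scarce Col1a1 from 103 ± 26.7 to 169 ± 18.1, 1.65-fold (limma adjusted p = 0.00153). Col5a1 did not pass the test, at 5239 ± 62.1 and 5548 ± 312 (limma adjusted p = 0.134).

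Upstream sequence is shown for Col6a1 and Col6a2, since both RNAs fell with TCA in the wild-type line. The ratio of Col6a1 to Col6a2 counts averaged 2.77 with vehicle and 2.28 with TCA there, and 2.14 in the tetra line with vehicle. The sequence comes from the promoter table of RefSeq (build GRCm38.p6), which matched 19 of the 31 genes. The 250 bases before the annotated start are printed 5′ to 3′ on the gene's strand, at chr10:76726045-76726294, minus strand, for Col6a1 and at chr10:76623405-76623654, minus strand, for Col6a2. Capitals mark matches, on either strand, to 4 motifs searched as letters: the AP-1 motif TGANTCA, the SP1 motif GGGCGG, the glucocorticoid receptor half-site AGAACA and the CCAAT box CCAAT.
Col6a1: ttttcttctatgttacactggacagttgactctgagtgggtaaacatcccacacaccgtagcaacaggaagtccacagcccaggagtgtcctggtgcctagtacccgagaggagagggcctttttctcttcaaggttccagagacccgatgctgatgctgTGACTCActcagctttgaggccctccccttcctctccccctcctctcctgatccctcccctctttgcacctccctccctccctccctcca
Col6a2: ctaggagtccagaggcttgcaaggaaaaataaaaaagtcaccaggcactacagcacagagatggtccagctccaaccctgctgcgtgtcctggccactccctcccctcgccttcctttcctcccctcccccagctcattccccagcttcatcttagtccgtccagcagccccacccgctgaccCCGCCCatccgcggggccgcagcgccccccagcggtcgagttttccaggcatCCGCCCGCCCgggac
Col6a1 holds 1 AP-1 match, whose first base lies at position -90 from the start, and none to the other motifs. Col6a2 holds 3 SP1 matches, at -67, -15 and -11, the last pair overlapping, and none to the others. Of the 19 matched genes, 13 (68.4%) held an SP1 match against 32.7% of all 32851 promoters of the same length, 9 (47.4%) a CCAAT box against 33.8%, 2 (10.5%, Col6a1 and Plaur) an AP-1 match against 6.75%, and 1 (5.26%, Sparc) a half-site against 16.1%. The matched genes had all passed the count filter, whereas the reference promoters were not filtered by expression or base content. These shares therefore do not compare like with like. A match is a description of letters, not a bound site.

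Sparc is shown because it was the one matched gene with half-site letters and fell with TCA; its 250 bases lie at chr11:55420081-55420330, minus strand.
Sparc: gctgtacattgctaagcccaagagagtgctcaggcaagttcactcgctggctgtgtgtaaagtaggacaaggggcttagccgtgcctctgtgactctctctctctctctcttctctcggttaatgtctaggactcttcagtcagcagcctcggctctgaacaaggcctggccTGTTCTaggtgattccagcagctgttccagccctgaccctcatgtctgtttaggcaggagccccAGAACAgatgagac
The half-site matches begin at -78 and -14.

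Laminin chains fell in 3 of 4 cases. Lamb3 counts were 2460.2, 2312 and 2377 with vehicle and 1130.3, 1061 and 1306 with TCA, a 2.04-fold fall without overlap (limma adjusted p = 2.35e-08). Lama5 and Lamc1, chains of a widespread epithelial laminin, fell 1.48-fold (limma adjusted p = 3.47e-05) and 1.28-fold (limma adjusted p = 2.22e-05). Lamb1, the beta chain of that laminin, was at 1482 ± 16.7 with vehicle and 1558 ± 45.8 with TCA and did not pass the test (SD, n = 3; limma adjusted p = 0.194). Of the lysyl oxidases, Loxl1 fell 1.17-fold (limma adjusted p = 0.0285, lost with scaling to total exon reads, at 0.0732, and without vehicle library 3 or TCA library 1 or 2, at up to 0.146). By values only, the abundant Lox was at 11994 ± 284 and 11604 ± 265 with overlapping libraries, and Loxl2 counts were 15.2, 23.7 and 26.8 with vehicle and 18.9, 22.3 and 16.8 with TCA, which also overlap.

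Protease genes and their inhibitors moved both ways. Mmp14 fell 1.46-fold from 5010.5 ± 165 to 3439 ± 68.9 (SD, n = 3; limma adjusted p = 2.82e-07), and Timp2, the inhibitor that also helps MMP14 activate pro-MMP2, fell 1.58-fold from 21269 ± 493 to 13475 ± 736 (SD, n = 3; limma adjusted p = 1.31e-07). Timp1 rose 1.30-fold from 638 ± 38.6 to 829 ± 66.6 (SD, n = 3; limma adjusted p = 0.000598). Timp3 rose 2.25-fold at a very low level, from 12.1 ± 4.43 to 27.2 ± 7.83 (limma adjusted p = 0.011, 0.0527 without vehicle library 2). In the plasminogen system, Plaur, the urokinase receptor, rose 1.31-fold (limma adjusted p = 0.0029) and Plau, urokinase itself, fell 1.30-fold (limma adjusted p = 0.0152, 0.0698 without vehicle library 1 and 0.0705 without TCA library 2). Plat, tissue plasminogen activator, was at 126 ± 14.4 and 152 ± 10.9 and did not pass the test. Adamts1, an aggrecanase and versican-cutting protease, fell 1.20-fold (limma adjusted p = 0.00375), and Adamts6 did not pass at 159 ± 3.07 and 173 ± 6.26.

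Other things moved with TCA in the wild-type line. Nr3c1 fell 1.30-fold, from 5528 ± 228 to 4247 ± 64.8 (SD, n = 3, limma adjusted p = 9.99e-06). Tsc22d3 rose 1.26-fold (limma adjusted p = 0.00118), and Per1 did not pass (limma adjusted p = 0.349). In the tetra line Nr3c1, Tsc22d3 and Per1 did not pass with TCA (limma adjusted p = 0.941 for each). The part of these genes in the matrix result was not tested. The summed normalised count of the 14 mesenchymal markers was 147228 to 150207 with vehicle and 89612 to 95012 with TCA, that of the 12 epithelial markers 1093 to 1238 and 170.2 to 281, that of the 6 endothelial markers 311 to 343 and 163 to 197, that of the 6 immune markers 168 to 214 and 90.5 to 104, and that of the 4 adipocyte markers 127 to 172 and 10.1 to 25.7. All 5 sums were lower with TCA, each resting largely on 1 gene (Vim, Krt14, Cdh5, Cd68 and Cidec), and their part in the matrix result was not tested. Not every marker followed its sum: mean counts with vehicle and with TCA were 209 and 646 for mesenchymal Snai2, 607 and 675 for Twist1, 14804 and 14289 for S100a4 and 1767 and 1679 for Zeb1, and 8.30 and 7.62 for the adipocyte marker Plin1. The authors' deposited table of this comparison carries 5 group labels for 6 libraries, per the file header, and holds 0 genes at an adjusted p below 0.05. The fold changes in the authors' deposited table matched a grouping of vehicle library 3 with TCA libraries 1 and 2 against vehicle libraries 1 and 2 (median absolute difference 0.000791 in log2), and differed from the labelled groups by a median of 0.0967. The labelled groups are used here.

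TCA on top of corticosterone gave a comparison of other wild-type libraries (TCA with corticosterone against corticosterone alone), fitted with limma on log2(normalised count + 1) of all 24 libraries. Of the 31 matrix genes, 17 fell and 8 rose, 54.8% and 25.8%, against 28.1% and 28.2% of the 12828 genes tested. Thbs1 fell 4.55-fold, from 51092, 54085 and 50879.5 with corticosterone to 11177, 11140.0 and 11950.1 with both (limma adjusted p = 5.34e-11). Col12a1 fell 3.27-fold, Col4a1 3.21-fold (limma adjusted p = 1.63e-17), Col4a2 2.69-fold, Col6a1 2.34-fold, Thbs2 2.13-fold, Lamb3 1.99-fold, Col6a2 1.88-fold and Sparc 1.78-fold. Col18a1, Col5a2, Timp2, Fn1, Mmp14, Lamc1, Lama5 and Lox fell between 1.12-fold and 1.60-fold. The genes that rose were Col1a1 (1.97-fold), Timp3 (2.17-fold, from 13.0, 5.07 and 7.40 to 23.5, 12.9 and 19.0, which overlap), Plat (1.33-fold), Plaur (1.30-fold), Col1a2 (1.28-fold), Adamts6 (1.27-fold), Timp1 (1.20-fold) and Col5a1 (1.14-fold). Adamts1, Plau and Loxl1, which fell with TCA alone, did not pass here (limma adjusted p = 0.509, 0.868 and 0.545), nor did Col3a1 (limma adjusted p = 0.09). The calls of Lox, Lama5, Col5a1, Timp1 and Adamts6 were each lost without at least 1 library. Those of Lox, Lama5 and Col5a1 were also lost with no trend (limma adjusted p = 0.0723, 0.0765 and 0.0803) and with no filter (0.0834, 0.0671 and 0.0779), that of Col5a1 with scaling to total exon reads (0.125) and that of Lox with the replicate block (0.0546). Col3a1 fell with scaling to total exon reads (limma adjusted p = 0.0425), without corticosterone library 1 (0.0478) and without library 3 of the group with both (0.0132).

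The same markers and the ribosomal transcript Rn45s moved with this comparison. The mesenchymal sum was 134115 to 136883 with corticosterone and 87382 to 90039 with both, the epithelial sum 921 to 1242 and 151 to 198, and the endothelial, immune and adipocyte sums were lower too, without overlap. Rn45s took 18.2% to 21.6% of exon reads with corticosterone and 25.6% to 28.6% with both, which do not overlap, against 20.8% to 22.8% with vehicle and 21.3% to 27.9% with TCA alone, which do. The part of these in the matrix result was not tested.

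**Figure D2:**
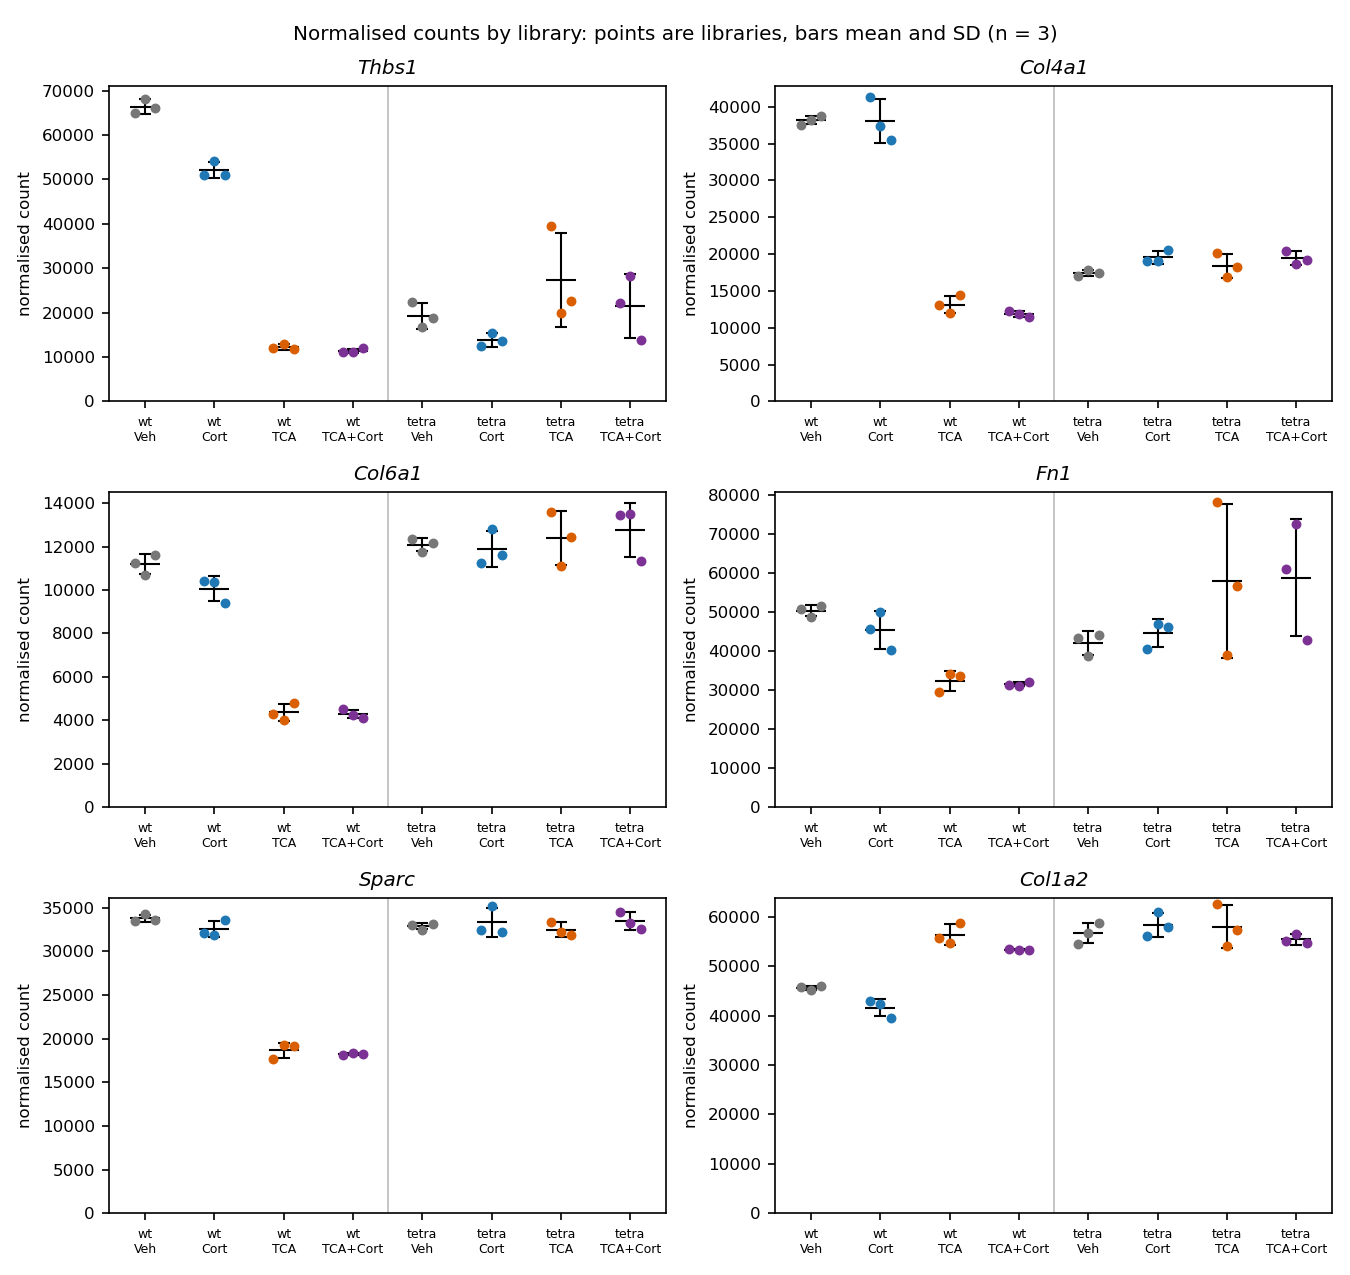
Normalised counts (y axes, starting at 0) of Thbs1, Col4a1, Col6a1, Fn1, Sparc and Col1a2 in the 8 groups (x axes); points are libraries and bars the mean and SD (n = 3). In the wild-type line the groups with TCA lie below those without it for every gene drawn except Col1a2, which is higher; in the tetra line Fn1 and Thbs1 spread widely among libraries with TCA.

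In the tetra line, TCA against vehicle passed the test for none of the 32 listed genes tested (Bgn met the filter in that table), at an adjusted p below 0.05 with limma; 7 of the 32 had an unadjusted p below 0.05, and voom also called none. Over all 13075 genes, 524 had an unadjusted p below 0.05 (limma). At the adjusted threshold 0.0153% rose and 0.0% fell, so few genes of any kind were called. Col4a1 counts were 17024, 17840.5 and 17472 with vehicle and 20102, 16855 and 18306 with TCA, and Sparc counts 33018, 32463 and 33106 and 33414, 32248 and 31826, both overlapping. Fn1 stood at 43365, 38643 and 44241 with vehicle and 78342, 39034 and 56607 with TCA, and Thbs1 at 22474, 16654 and 18805 and 39439.9, 19879 and 22542. For both genes TCA library 1 was the highest of the 6, and the groups overlapped. The groups did not overlap for Plau, Adamts6 and Col1a1, none of which passed (limma adjusted p = 0.941 for each). The share of all genes without overlap is not given here, so these values are a description only. Plau was at 376, 322 and 388 with vehicle and 527, 458 and 399 with TCA, Adamts6 at 219, 217 and 240.4 and 270.1, 275 and 267, and Col1a1, which was lower, at 227, 197 and 237 and 182, 159 and 196. Over the 32 genes the change ran from -0.14 to 0.44 on the stabilised log2 scale, the latter for Thbs1. The summed count of the mesenchymal markers was 117794 to 121598 with vehicle and 115484 to 117296 with TCA in this line.

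The difference between the lines in the response to TCA was tested directly. It passed for 22 of the 31 matrix genes. The change in the tetra line minus that in the wild-type line was positive for 19, and negative for Col1a1, Col1a2 and Timp3. Over all genes tested the shares were 22.4% positive and 21.4% negative, against 61.3% and 9.68% of the matrix genes. The difference, tetra minus wild type, was 2.88 ± 0.26 (SE, log2) for Thbs1 (limma adjusted p = 5.92e-10), 1.62 ± 0.10 for Col4a1 (limma adjusted p = 3.05e-13), 1.57 ± 0.13 for Col12a1 (limma adjusted p = 1.43e-10) and 1.39 ± 0.11 for Col6a1 (limma adjusted p = 3.22e-11). For Col1a1 it was -1.04 ± 0.19 (limma adjusted p = 8.62e-05). The difference for Col3a1, 0.51 ± 0.18, lost its call without any of 4 libraries, that for Timp3 without any of 4 libraries or with no filter (0.0522), and that for Col1a2 with no filter (0.0565), as limma adjusted p.

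**Figure D3:**
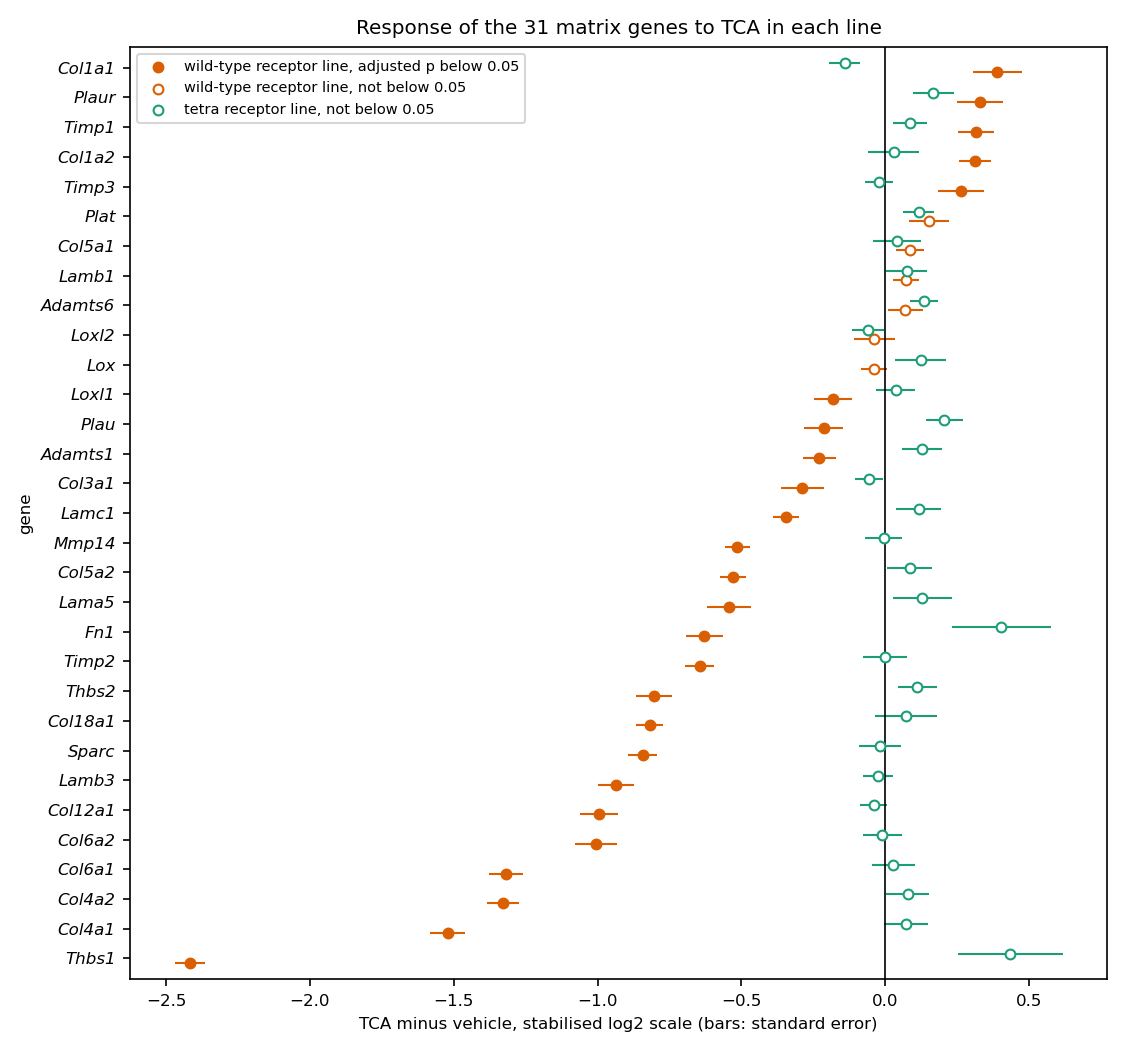
Change with TCA against vehicle (x axis, stabilised log2 scale, bars standard error, n = 3 libraries a group) for the 31 matrix genes (y axis, ordered by the wild-type change). Filled points pass an adjusted p below 0.05; orange is the wild-type receptor line, where 20 genes are filled to the left of 0 and 5 to the right, and green the tetra line, where none is filled.

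With corticosterone present, TCA again changed none of the 31 matrix genes in the tetra line at an adjusted p below 0.05 (limma; 4 had an unadjusted p below 0.05, and voom also called none), where 0.0546% of all genes rose and 0.0234% fell. Of all 12828 genes tested, 1077 had an unadjusted p below 0.05 (limma). The calls depended on 1 library. In the group with both compounds, library 3 stood apart from libraries 1 and 2: Fn1 counts were 61058, 72486 and 42873, Thbs1 counts 22171, 28152 and 13799 and Col18a1 counts 8269, 8176 and 6118. Without library 3, 154 of all genes were called higher and 103 lower, and among them Thbs1, Fn1 and Col18a1 rose (limma adjusted p = 0.00426, 0.0471 and 0.034).

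The lines also differed without any treatment. With vehicle, 13 of the 31 matrix genes were higher and 11 lower in the tetra line than in the wild-type line (41.9% and 35.5%, against 18.8% and 19.7% of all genes tested). Thbs1 was 3.44-fold lower in the tetra line (limma adjusted p = 5.31e-09), Col4a1 2.19-fold (limma adjusted p = 2.09e-13), Col4a2 2.06-fold (limma adjusted p = 9.59e-13) and Col12a1 1.87-fold (limma adjusted p = 6.14e-09). Lamc1, Adamts1, Lamb3, Timp2, Mmp14, Lama5 and Col5a2 were 1.20-fold to 1.42-fold lower.

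Higher in the tetra line with vehicle were Col3a1, 2.34-fold from 120.4 ± 19.6 to 282 ± 10.4 (SD, n = 3; limma adjusted p = 9.52e-09), Col1a1 2.14-fold (limma adjusted p = 1.89e-07), Plau 1.84-fold (limma adjusted p = 5.35e-07) and Timp3 2.64-fold (limma adjusted p = 0.000745). Col5a1, Plat, Adamts6, Col6a2, Timp1, Loxl1, Col1a2, Thbs2 and Lamb1 were 1.15-fold to 1.46-fold higher. The calls of Thbs2, Lamb1 and Lama5 were each lost without at least 1 library. Sparc, Lox, Col18a1, Plaur, Col6a1, Fn1 and Loxl2 did not pass. From the libraries of the contrast alone, however, Fn1 was lower (log2 -0.26, limma adjusted p = 0.000246) and Col6a1 higher (0.0358, and 0.0211 with scaling to total exon reads). The Thbs1 level of the tetra line with vehicle was 19311 ± 2943. It thus lay between those of the wild-type line with vehicle, 66405 ± 1645, and with TCA, 12226 ± 592 (SD, n = 3). Col4a1 did likewise at 17446 ± 409, 38172 ± 577 and 13148 ± 1204. This did not hold for every gene that fell with TCA in the wild-type line. In the tetra line with vehicle, Col3a1, Col6a1, Col6a2, Thbs2, Loxl1 and Plau lay above the wild-type vehicle mean. Lamc1 and Adamts1 lay below the wild-type TCA mean.

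Corticosterone against vehicle shows the hormone response through each receptor form. In the wild-type line 2 of the 30 listed genes tested fell and none rose (limma, adjusted p below 0.05; 9 had an unadjusted p below 0.05), where 1.47% of all genes fell and 0.918% rose. Of all 12749 genes tested, 1789 had an unadjusted p below 0.05 (limma). Adamts1 counts were 1474, 1625 and 1355 with vehicle and 947, 1019.7 and 963 with corticosterone. Every hormone library lay below every vehicle library, a 1.52-fold fall (log2 -0.38 ± 0.04 SE, limma adjusted p = 8.15e-06). Thbs1 counts went from 64925, 68176 and 66115 to 51092, 54085 and 50879.5, a 1.28-fold fall, again without overlap (log2 -0.34 ± 0.05 SE, limma adjusted p = 0.00063).

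The Adamts1 promoter is shown as that of the listed gene with the smallest adjusted p for corticosterone in the wild-type line; its 250 bases lie at chr16:85803114-85803363, minus strand.
Adamts1: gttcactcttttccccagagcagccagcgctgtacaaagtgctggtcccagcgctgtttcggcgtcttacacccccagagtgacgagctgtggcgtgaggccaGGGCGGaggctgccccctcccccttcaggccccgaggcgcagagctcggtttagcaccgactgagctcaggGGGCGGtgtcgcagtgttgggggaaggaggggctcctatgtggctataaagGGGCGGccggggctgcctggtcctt
It holds 3 SP1 matches, at -147, -76 and -25, and no AP-1, half-site or CCAAT match in this window.

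In the tetra line corticosterone lowered 3 of the 32 listed genes tested and raised none (limma, adjusted p below 0.05; 7 had an unadjusted p below 0.05), where 0.871% of all genes fell and 2.47% rose. Of all 12863 genes tested, 1574 had an unadjusted p below 0.05 (limma). Plau counts were 376, 322 and 388 with vehicle and 248, 239 and 254 with corticosterone, a 1.46-fold fall without overlap (log2 -0.23 ± 0.04 SE, limma adjusted p = 0.000772). Col1a1 counts were 227, 197 and 237 and 137, 143 and 148, a 1.54-fold fall (log2 -0.21 ± 0.04 SE, limma adjusted p = 0.00118). Thbs1 counts were 22474, 16654 and 18805 and 12465, 15457 and 13499, a 1.40-fold fall (log2 -0.46 ± 0.08 SE, limma adjusted p = 0.00216). In all 3 genes the hormone libraries lay below the vehicle libraries.

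Between the lines, the response to corticosterone differed for none of the 31 matrix genes at an adjusted p below 0.05 (limma), and voom also called none. Of all genes, the difference, tetra minus wild type, passed as positive for 0.725% and as negative for 0.0546%. An unadjusted p below 0.05 was found for 4 of the 31 and for 744 of all 12828 genes tested (limma). Adamts1 came nearest: it stood at 1063 ± 47.9 with vehicle and 985 ± 40.5 with corticosterone in the tetra line (SD, n = 3), and the difference was 0.49 ± 0.12 (SE, log2; limma adjusted p = 0.0507). That difference passed with a pseudocount of 10 (0.0492), from the libraries of the contrast alone (0.00263), with the replicate block (0.0387) and without wild-type vehicle library 3 (0.0321), as limma adjusted p. For Plau and Col1a1 the differences were -0.15 ± 0.16 and -0.58 ± 0.19 (SE, log2; limma adjusted p = 0.999 and 0.326). Plau in the wild-type line was at 197 ± 16.1 with vehicle and 151 ± 22.3 with corticosterone (SD, n = 3).

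**Figure D4:**
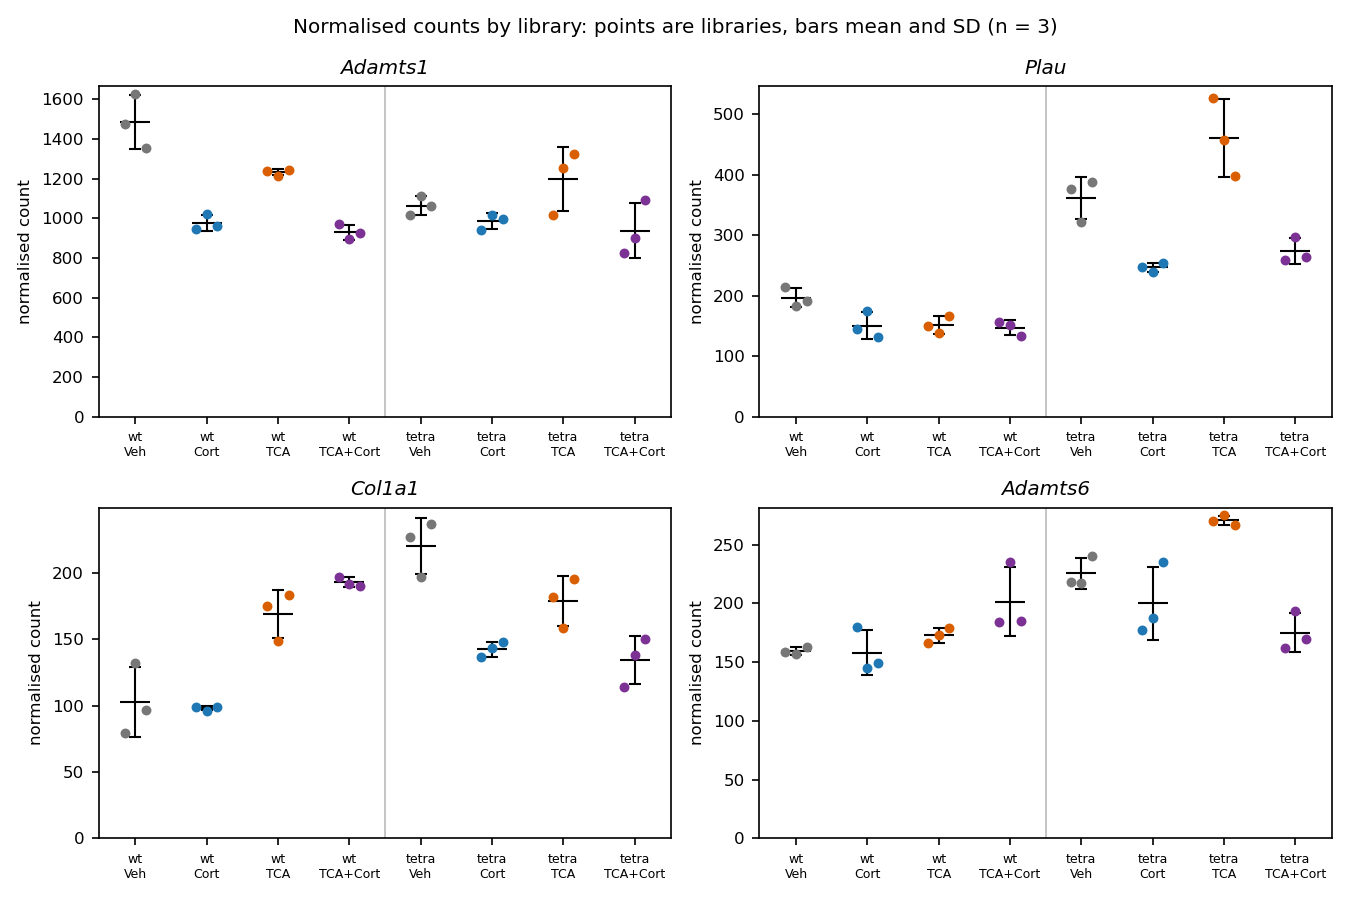
Normalised counts (y axes, starting at 0) of Adamts1, Plau, Col1a1 and Adamts6 in the 8 groups (x axes); points are libraries and bars the mean and SD (n = 3). Adamts1 is lower with corticosterone in both pairs of wild-type groups, Plau in both pairs of tetra groups. Means are also lower for Adamts1 in both tetra pairs and for Plau in both wild-type pairs, without passing the test. For neither gene did the response to corticosterone differ between the lines at an adjusted p below 0.05 (limma).

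Corticosterone on top of TCA, against TCA alone, lowered 1 of 31 matrix genes in the wild-type line and raised none, where 0.141% of all genes fell and 0.274% rose. Adamts1 counts were 1239.8, 1215 and 1245 with TCA and 971, 896 and 924 with both, a 1.33-fold fall without overlap (log2 -0.28 ± 0.04 SE, limma adjusted p = 0.00558). The call was lost with the replicate block (limma adjusted p = 0.0595) and without library 2 of the group with both compounds (limma adjusted p = 0.0895). Thbs1, already low with TCA, was at 12226 ± 592 and 11422 ± 457 (SD, n = 3; limma adjusted p = 0.33). One library weighed on this comparison: without TCA library 3, 1168 of all genes were called higher and 1401 lower, and Lama5 and Loxl1 then rose and Thbs1 and Col5a2 fell.

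In the tetra line, corticosterone on top of TCA lowered 2 of 32 listed genes and raised none, where 0.288% of all genes fell and 1.42% rose. Plau counts were 527, 458 and 399 with TCA and 258, 298 and 265 with both, a 1.69-fold fall without overlap (log2 -0.42 ± 0.06 SE, limma adjusted p = 0.000965). Adamts6 counts were 270.1, 275 and 267 and 162, 194 and 169, a 1.55-fold fall (log2 -0.30 ± 0.05 SE, limma adjusted p = 0.00391). Adamts1 was at 1017, 1254 and 1325 and 823, 901 and 1090.4 and passed in neither direction (limma adjusted p = 0.201), but fell without TCA library 1 (0.0172), without library 3 of the group with both (0.0288) and with the replicate block (0.0251).

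A wider list of 178 further matrix genes was set beside the 31. It too was chosen with earlier results of these data known, so it is not an independent check. TCA in the wild-type line lowered 51 and raised 16 of the 93 that were tested, 54.8% and 17.2%, with a median change of -0.20, where 28.6% of all genes tested fell and 28.8% rose. Prelp, a leucine-rich proteoglycan, fell 4.71-fold (limma adjusted p = 6.3e-11), Igfbp7 4.61-fold (limma adjusted p = 1.83e-10) and Cst3, the cysteine protease inhibitor cystatin C, 2.30-fold (limma adjusted p = 4.74e-10). The serine protease Htra1, Ltbp1 and the metalloproteinase Adam8 rose 1.42-fold, 1.39-fold and 2.19-fold. In the tetra line TCA passed for none of the 97 tested (limma, adjusted p below 0.05), where 0.0153% of all genes rose and 0.0% fell. An unadjusted p below 0.05 was found for 5 of the 97 and for 524 of all 13075 genes tested (limma).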

How the data were processed

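RNA was sequenced from 24 libraries, 3 in each of 8 groups, after ribosomal depletion with a stranded kit. The submitters' processing notes name cutadapt, STAR 2.7.0f, HOMER 4.10.4 and the build mm10. The authors, per the file headers, counted exon reads per RefSeq gene and deposited variance-stabilised log2 values, log2 fold changes, p-values and exon lengths, in 6 tables normalised separately. No strand setting is given in the sources used here. The deposited table of TCA in the tetra line holds 26188 symbols against 25124 in the others, and a library shared by tables had equal counts for 99.4% to 99.5% of genes between wild-type tables and 90.8% to 91.3% where that table was involved.

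Whole counts were recovered by inverting the stabilisation: below a count of 1000, 100% of recovered values were whole to a tolerance of 0.01. They were divided by median-ratio size factors over the 24 libraries. Genes averaging 10 or more normalised counts were tested with limma 3.58.1 (R 4.3.3), with an intensity trend and Benjamini-Hochberg adjustment at 0.05. There were 11 comparisons: 6 within a table on the deposited log2 values, and 5 (TCA on corticosterone in each line, the lines with vehicle, and the differences of response) on log2(normalised count + 1) of all libraries. Depth was 22.02 to 30.6 M exon reads per library. The limma step on log2(normalised count + 1) was run on simulated counts of a fixed spread, for a comparison of groups and a difference between lines. The recovery of counts and the deposited log2 values were not simulated.

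Alternatives were another value scale or a pseudocount of 10, no trend, voom, scaling to total exon reads, no filter or a minimum of 50, the libraries of the contrast alone, a replicate block and each library left out. The genes and lists were chosen with earlier results of these data known. Up to 6 called genes a direction got full statistics; other listed genes got folds or values; up to 3 genes a direction came from the wider list, by adjusted p. Promoters came from a RefSeq table (GRCm38.p6) that matched 19 of 31 genes. The response of the wider list to corticosterone is not reported here.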

Additional observations from a re-analysis of the deposited data

Results flagged for a closer look

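For 22 matrix genes the response to TCA differed between the lines by a test of the difference itself (limma, adjusted p below 0.05). The difference, tetra minus wild type in log2, was 2.88 for Thbs1, 1.2 for Thbs2, 1.05 for Fn1 and 0.84 for Sparc. Among basement membrane genes it was 1.62 for Col4a1, 1.44 for Col4a2, 0.934 for Col18a1, 1.01 for Lamb3, 0.721 for Lama5 and 0.483 for Lamc1. Among other collagens it was 1.57 for Col12a1, 1.39 for Col6a1, 1.07 for Col6a2, 0.636 for Col5a2 and 0.506 for Col3a1. Among proteases and inhibitors it was 0.719 for Plau, 0.66 for Timp2, 0.538 for Mmp14 and 0.429 for Adamts1. It was negative for Timp3 at -1.22, for Col1a1 at -1.04 and for Col1a2 at -0.275. With vehicle the lines also differed in most of these genes, but Sparc, Col18a1, Col6a1 and Fn1 did not pass that test. The form of the receptor cannot be told apart from the line that carries it.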

How the results depend on the processing

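For the 104 single-gene results that passed the test, 1551 values were recomputed: 1498 kept their call, 53 lost it and 0 changed sign. Of these 104 results, 15 lost their call in at least 1 setting. Results that gained a call in another setting are outside this count. The libraries were fitted as unpaired. Correlations between same-numbered libraries of compared groups were -0.151 to 0.247, never all 3 above 0.1 in a comparison. Such correlations cannot exclude pairing by replicate number. With the replicate block, corticosterone on TCA in the wild-type line called 0 matrix genes lower, and 9 of all genes higher and 0 lower; TCA in the tetra line called 9 and 2 of all genes; corticosterone in the tetra line called 1 matrix gene higher (Col4a1) and 230 of all genes lower, and on TCA 71 lower; the difference in the response to corticosterone called 1 matrix gene higher (Adamts1), as did the pseudocount of 10 and the contrast alone. Scaling to total exon reads gave 186 higher and 82 lower of all genes for corticosterone in the wild-type line, 14 and 2 on TCA, 1 higher for TCA in the tetra line and 11 lower for the difference in the response to corticosterone; the share of higher calls went from 38.5% to 69.4% for corticosterone and from 66.0% to 87.5% on TCA in the wild-type line, and from 48.9% to 66.2% between the lines. Without a trend, corticosterone in the tetra line called 1 matrix gene higher, TCA on corticosterone there 2 of all genes higher and 0 lower, and the difference in the response to corticosterone 4 lower. With the contrast alone the last called 20 lower and TCA on corticosterone in the tetra line 0 lower. With no filter, TCA in the tetra line called 5 of all genes higher, and the difference in the response to TCA 1 matrix gene lower. Leaving out 1 library each gave these ranges. For corticosterone in the wild-type line, 74 (without vehicle 3) to 216 (without corticosterone 3) of all genes were higher and 74 to 284 lower. On TCA there, 0 to 2 matrix genes were higher and 0 to 3 lower, and 6 (without library 2 of the group with both) to 1168 (without TCA 3) of all genes higher and 0 to 1401 lower. In the tetra line, TCA called 1 to 6 of all genes higher; corticosterone 71 to 142 lower; corticosterone on TCA 0 to 1 matrix genes higher and 16 to 66 of all genes lower; TCA on corticosterone 0 to 3 matrix genes higher, 2 to 154 of all genes higher and 0 to 103 lower. For the difference in the response to corticosterone, 0 to 1 matrix genes were higher, 0 to 1 lower (Col1a1 without wild-type vehicle 2) and 3 to 10 of all genes lower. Causes were not tested. At this depth 3 reads equal a normalised count of 2.47 to 3.53.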

Other observations

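For an RNA whose synthesis stopped at the start of the 120 min treatment, first-order decay alone would give the measured fall with TCA in the wild-type line at a half-life of 49.2 min for Thbs1, 72.1 min for Col12a1 and 78.0 min for Col4a1. These are arithmetic on the fold changes, and synthesis and decay were not measured.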
